A study of Mus musculus with 2 samples.

Results

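The genes described here are the 10 that pump, store and buffer calcium in muscle fibres: the pumps Atp2a1, Atp2a2 and Atp2a3, the pump inhibitors Sln and Pln, the luminal storage genes Casq1, Casq2, Srl and Hrc, and the cytosolic buffer Pvalb. They were chosen by name, as fast and slow isoforms and as pumps with their inhibitors, and are 10 of the 55536 genes in the tables. The samples are total RNA of calf muscle (gastrocnemius) from 2 female mice aged 8 to 10 months, sequenced as 1 library per animal (replicate 2 from animal 3 and replicate 1 from animal 1). Both were B6CASTF1/J, hybrids of the B6 and CAST strains, and the labels name no engineered allele, treatment or agent. They form 1 group, so no test between groups exists and no p-value is given. Differences are set against the spread over the animals (SD, n = 2).

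After each contraction, calcium released from the sarcoplasmic reticulum is pumped back by SERCA ATPases. SERCA1 (Atp2a1) serves fast fibres, SERCA2 (Atp2a2) slow fibres, heart and most other cells, and SERCA3 (Atp2a3) mainly non-muscle cells. Inside the store, calsequestrin binds calcium at high capacity, as Casq1 in skeletal fibres of both kinds and Casq2 in heart and slow fibres. Sarcolipin (Sln) and phospholamban (Pln) are small membrane proteins that lower pump activity, and parvalbumin (Pvalb) takes up calcium in the cytosol of fast fibres, which speeds relaxation.

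The libraries held 43421652 expected counts in replicate 2 and 42714567 in replicate 1, of which the 10 genes took 4.08% and 4.15%. Levels are in TPM, a transcript abundance scaled for length and for the library's total. Detection means at least 1 TPM in each animal, which 9 of the 10 genes reached. The abundant short RNA genes Rn7s1 and Rn7s2 held 33.6% of all TPM in replicate 2, against 27.0% in replicate 1, which lowers other TPM values in replicate 2. As markers of muscle, all 6 fast-fibre genes were detected, with a summed level of 51527 TPM in replicate 2 and 57217 TPM in replicate 1, and so were all 6 slow-fibre genes. Each library was also quantified a second time by the authors, and some values of that second quantification are given beside those of the first. In bulk tissue, fewer fibres of a type and less RNA per fibre cannot be told apart.

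The fast pump dominated. Atp2a1 (ENSMUSG00000030730.12, chr7:126445858-126463108, minus strand, mm10) had 12985 TPM in replicate 2 and 14880 TPM in replicate 1, or 13933 ± 1340 TPM, which placed it at rank 6 of 22015 nuclear protein-coding genes. It took 3.27 ± 0.0377% of all expected counts. Its exons overlap those of Rabep2 on the opposite strand by 763 of 3477 bases, and Rabep2 had 551 counts in replicate 2 and 548 in replicate 1. Atp2a2 (chr5:122453513-122502225, minus strand) had 225 TPM in replicate 2 and 208 TPM in replicate 1. Atp2a3 (chr11:72961169-72993044, plus strand) had 1.5 TPM in replicate 2 and 1.88 TPM in replicate 1, from 217 and 237 counts. The levels of the 3 pumps did not overlap.

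The level of Atp2a1 was 57.8 times that of Atp2a2 in replicate 2 and 71.5 times in replicate 1, a mean ratio of 64.6 ± 9.68. Atp2a1 therefore made up 98.4 ± 0.227% of the summed SERCA TPM, Atp2a2 1.54 ± 0.227% and Atp2a3 0.0119 ± 0.000781%. The second quantification gave a lower Atp2a1 to Atp2a2 ratio of 47.4 in replicate 2 and 56.9 in replicate 1. The fast isoform stayed far above the slow one in both animals by either quantification.

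**Figure D1:**
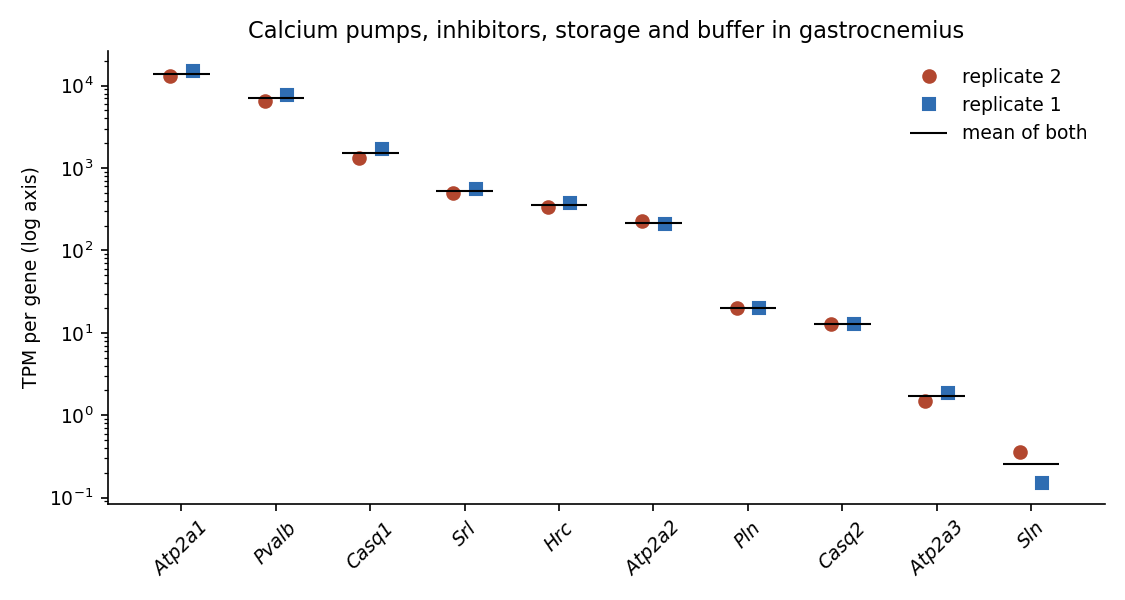
TPM of the 10 genes in replicate 2 (circles) and replicate 1 (squares), with the mean of both as a bar, on a log axis and ordered by mean. Levels run from 13933 TPM for Atp2a1 to 0.255 TPM for Sln, and the points of neighbouring genes do not overlap.

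Both muscle pumps exist in versions that differ at the end of the coding sequence, and the ends are shown to mark where they part. Atp2a1-201 carries the adult end (SERCA1a), and Atp2a1-202, an annotated fragment with an incomplete 5′ end, carries the coding end of the neonatal form (SERCA1b). Atp2a2-202 encodes the muscle form SERCA2a with 998 codons, and Atp2a2-201 the widely expressed SERCA2b with 1044 codons. In the sequences below (GENCODE M21, GRCm38, coding strand, 5′ to 3′, ending at the stop codon), lower case is the last 30 bases the pair shares and capitals are the bases after they part. The first 3 of the 4 join exons across an intron.
Atp2a1-201, chr7:126446582-126446900, minus strand: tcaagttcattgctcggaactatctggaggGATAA
Atp2a1-202, chr7:126446101-126446900, minus strand: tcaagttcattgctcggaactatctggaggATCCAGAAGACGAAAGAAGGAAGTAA
Atp2a2-202, chr5:122454291-122457332, minus strand: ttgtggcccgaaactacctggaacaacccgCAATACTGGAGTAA
Atp2a2-201, chr5:122457151-122457332, minus strand: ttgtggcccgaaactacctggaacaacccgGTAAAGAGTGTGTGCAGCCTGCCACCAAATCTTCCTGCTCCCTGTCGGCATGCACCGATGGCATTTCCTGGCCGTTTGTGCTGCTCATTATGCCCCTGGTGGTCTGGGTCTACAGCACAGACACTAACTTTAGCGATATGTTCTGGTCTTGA

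The adult end of Atp2a1 adds 5 bases after the shared part, the neonatal end 26. The fragment with the neonatal end was assigned 0.04% of Atp2a1 TPM in each animal, from 99.5 expected counts in replicate 2 and 103 in replicate 1. This fragment has 0 exon bases outside Atp2a1-201, so only reads across a splice junction could tell it apart. In Atp2a2, the muscle end adds 14 bases and the SERCA2b end 152. The SERCA2a transcript Atp2a2-202 held 77.9% of Atp2a2 TPM in replicate 2 and 76.5% in replicate 1, and the SERCA2b transcript Atp2a2-201 held 20.9% and 22.1%. In TPM, SERCA2b stood at 46.9 in replicate 2 and 46.0 in replicate 1, and SERCA2a at 175 and 159. The second quantification gave SERCA2a 79.1 ± 0.569% and SERCA2b 20.2 ± 0.522%, so about the same split came from both.

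**Figure D2:**
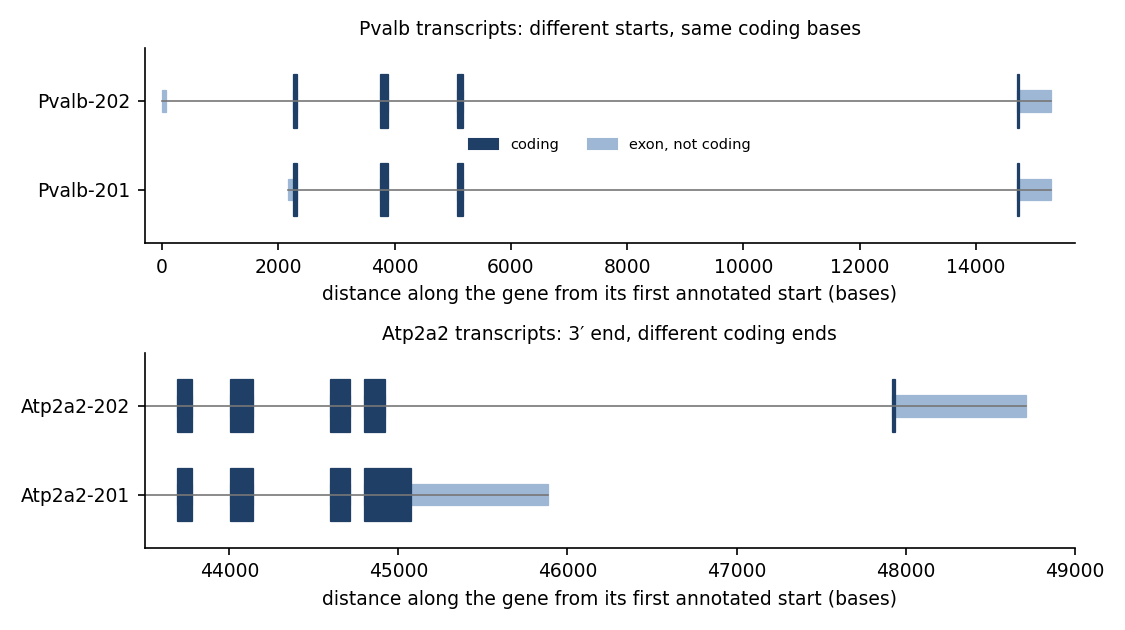
Exons of Pvalb-202 and Pvalb-201 (whole genes) and of Atp2a2-202 and Atp2a2-201 (3′ end only), against distance in bases along the gene from its first annotated start; tall dark boxes are coding and short pale boxes are not. The Pvalb transcripts start with different exons, and the Atp2a2 transcripts part where Atp2a2-202 is spliced and Atp2a2-201 runs on.

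The classical inhibitors were scarce beside the pumps. Sln (ENSMUSG00000042045.6, chr9:53850164-53854560, plus strand) had 0.36 TPM in replicate 2 and 0.15 TPM in replicate 1. These rest on 14 counts in replicate 2 (95% exact Poisson interval 7.65 to 23.5) and 5 counts in replicate 1 (1.62 to 11.7). The counting interval of their log2 ratio ran from -0.09 to 3.29 and spans 0. These intervals cover counting error only, and no difference in Sln between the animals was detectable at this depth.

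Pln (ENSMUSG00000038583.13, chr10:53337667-53345987, plus strand) had 20.2 TPM in replicate 2 and 19.8 TPM in replicate 1, from 796 and 760 counts. It exceeded Sln 56.0-fold in replicate 2 and 132-fold in replicate 1, a ratio that the few Sln counts leave imprecise. Its exons overlap those of Cep85l and Gm47644 on the opposite strand by 141 and 1644 of 2759 bases. The library kit keeps strand, per the labels, but no source states that the counting used it. Gm47644 itself had 41 counts in replicate 2 and 13 in replicate 1, and Cep85l 2533 and 3077.

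Their coding sequences are shown since both peptides are short enough to print whole and share a stretch. Capitals mark the longest run of codons that encode the same residues in both, codons 8 to 12 of Sln and 31 to 35 of Pln (GENCODE M21, GRCm38, plus strand). Within it 13 of 15 bases are identical.
Sln-201, chr9:53853473-53853568: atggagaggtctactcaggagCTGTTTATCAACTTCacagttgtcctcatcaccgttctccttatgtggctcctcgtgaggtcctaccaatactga
Pln-201, chr10:53343864-53344022: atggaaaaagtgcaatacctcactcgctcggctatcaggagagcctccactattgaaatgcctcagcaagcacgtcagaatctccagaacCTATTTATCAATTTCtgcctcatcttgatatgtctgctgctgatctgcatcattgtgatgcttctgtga

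Summed over its 3 genes, pump TPM was 644 times the summed Sln and Pln TPM in replicate 2 and 757 times in replicate 1 (700 ± 79.7). The second quantification gave 522 and 656. The ratio was far smaller for the partner of Pln in heart and slow fibres: Atp2a2 stood at 11.2 times Pln in replicate 2 and 10.5 times in replicate 1 (10.8 ± 0.448). A ratio of transcripts does not give the ratio of proteins.

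Other micropeptides bind the pump as well, and 3 of 4 were detected. Mrln, which encodes myoregulin, an inhibitor of the skeletal muscle pump, had 99.0 TPM in replicate 2 and 91.0 TPM in replicate 1, which was 4.75 ± 0.223 times Pln. Atp2a1 stood at 131 times Mrln in replicate 2 and 164 times in replicate 1. Gm34302, for which the RefSeq gene table lists the synonym DWORF, a peptide that relieves pump inhibition, had 34.1 TPM in replicate 2 and 36.6 TPM in replicate 1. The second quantification put it at 0 and 0.487 TPM, so its level depended on the method. 1810037I17Rik (another-regulin) had 8.78 TPM in replicate 2 and 11.3 TPM in replicate 1. Smim6 (endoregulin) was listed at 0 counts in both, where a count of 0 allows up to 3 counts, or a CPM (count scaled to the library total) of 0.0691 in replicate 2 and 0.0702 in replicate 1.
Mrln is shown as the highest of these regulators, in lower case throughout because no part is compared.
Mrln-201 coding sequence, chr10:70219496-70219636, plus strand: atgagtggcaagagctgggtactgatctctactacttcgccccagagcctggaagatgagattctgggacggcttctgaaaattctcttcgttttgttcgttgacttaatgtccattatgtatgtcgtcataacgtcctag

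Among the storage genes, skeletal calsequestrin led. Casq1 (chr1:172209894-172219868, minus strand) had 1319 TPM in replicate 2 and 1690 TPM in replicate 1, at rank 25 of nuclear protein-coding genes. Casq2 (chr3:102086415-102146514, plus strand) had 12.8 TPM in replicate 2 and 12.7 TPM in replicate 1. Casq1 thus stood at 103 times Casq2 in replicate 2 and 133 times in replicate 1 (118 ± 21.3), or 99.1 ± 0.153% of calsequestrin TPM. The levels of the calsequestrins did not overlap. The antisense gene Gm17224, which shares exon bases with Casq1, had 0 counts in both.

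Srl (sarcalumenin, a luminal calcium-binding protein; chr16:4480216-4541816, minus strand) had 496 TPM in replicate 2 and 560 TPM in replicate 1. Hrc (the histidine-rich calcium-binding protein of the store; chr7:45335290-45338974, plus strand) had 336 TPM in replicate 2 and 377 TPM in replicate 1. Of the summed TPM of these 4 luminal genes, Casq1 held 62.5 ± 2.16%, Srl 22.1 ± 1.21%, Hrc 14.9 ± 0.876% and Casq2 0.536 ± 0.0786%. The share of Srl depended on the method. By the second quantification Srl had 710 TPM in replicate 2 and 805 TPM in replicate 1. Casq1 then exceeded it by 1.73 ± 0.171 times instead of 2.84 ± 0.254. It exceeded Hrc by 2.71 ± 0.0373 times instead of 1.48 ± 0.00583. The second values include short noncoding transcripts, Srl-204 at 265 TPM in replicate 2 and 288 TPM in replicate 1, and Srl-205 at 115 and 128 TPM. The coding transcripts were lower by the second quantification than by the first in both animals. In replicate 2, Srl-202 had 207 TPM instead of 253 and Srl-201 had 122 TPM instead of 173.

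The cytosolic buffer Pvalb (chr15:78191114-78206400, minus strand) had 6565 TPM in replicate 2 and 7621 TPM in replicate 1, second only to Atp2a1 among the 10 genes and at rank 11 of nuclear protein-coding genes. It stood at 0.497 times the summed pump TPM in replicate 2 and 0.505 times in replicate 1 (0.501 ± 0.00573). The second quantification gave 0.499 ± 0.00434.

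From highest to lowest the order was Atp2a1, Pvalb, Casq1, Srl, Hrc, Atp2a2, Pln, Casq2, Atp2a3 and Sln. The values of the animals overlapped at 0 of the 9 steps between neighbours, and the difference in means exceeded the summed SDs at each step. The narrowest steps were Srl over Hrc (1.48-fold) and Pln over Casq2 (1.57-fold). The second quantification kept the order at 9 of 9 steps. The 10 genes together summed to 21961 TPM in replicate 2 and 25370 TPM in replicate 1, and held 5.17 ± 0.132% of nuclear protein-coding TPM.

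The pump and calsequestrin ratios were set beside 5 fast over slow contractile pairs, although Casq1 serves fibres of both kinds and is not a fast isoform alone. Fast over slow ratios of TPM were 68.9 ± 9.01 for troponin T (Tnnt3 over Tnnt1), 59.7 ± 3.33 for troponin I (Tnni2 over Tnni1) and 38.4 ± 2.74 for myosin heavy chain (Myh4 over Myh7). They were 33.8 ± 2.45 for the regulatory light chain (Mylpf over Myl2) and 19.1 ± 3.15 for troponin C (Tnnc2 over Tnnc1). The second quantification put the regulatory light chain at 20.1 ± 1.99 and troponin C at 31.5 ± 5.10, which reverses their order. The pump ratio of 64.6 ± 9.68 lay within the range of these pairs and overlapped those of troponin T and troponin I. By the second quantification it was 47.4 in replicate 2 and 56.9 in replicate 1. That was below troponin T (58.1 and 71.5) and troponin I (60.1 and 66.1), with no overlap. The calsequestrin ratio was above all 5 in both animals, by either quantification. Each of the 7 ratios was lower in replicate 2 than in replicate 1.

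**Figure D3:**
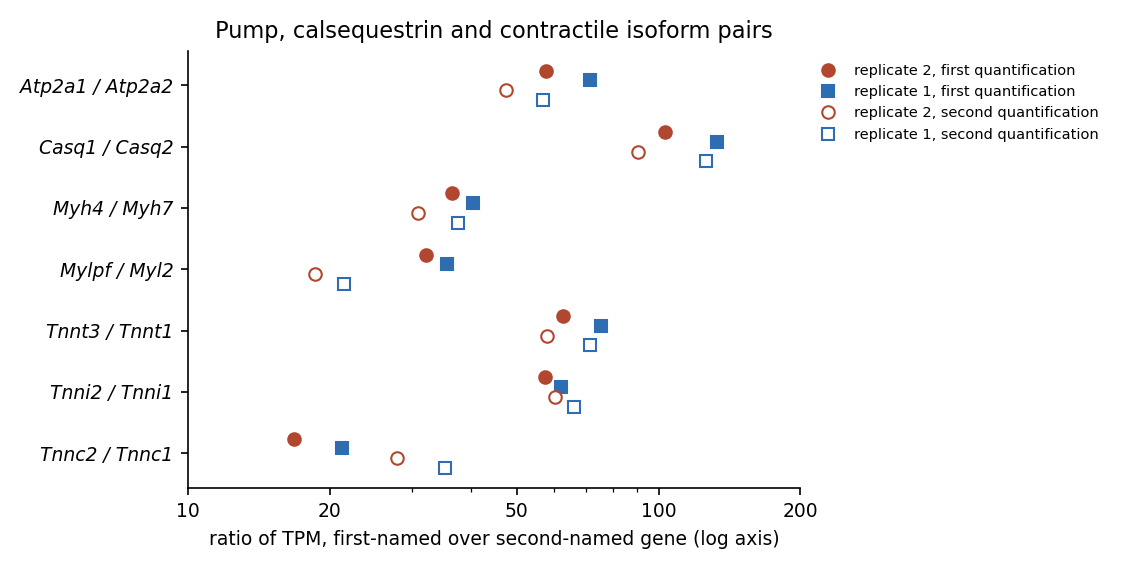
Ratio of TPM of the first-named over the second-named gene on a log axis, for the pump and calsequestrin pairs and 5 fast over slow contractile pairs; circles are replicate 2, squares replicate 1, filled points the first quantification and open points the second. Casq1 over Casq2 is the highest pair at 103 in replicate 2 and 133 in replicate 1, and replicate 2 lies left of replicate 1 in every pair.

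The animals were then compared after scaling that is not set by the short RNAs. CPM were scaled by TMM, a normalization to the bulk of genes, over the 11127 genes that averaged 50 or more expected counts, which 9 of the 10 genes passed. Sln was below it. At least 1.5-fold apart were 0 of the 9, against 5.56% of all genes. Higher in replicate 2 were 4 of the 9, against 49.4% of all genes. Their median log2 ratio of replicate 2 over replicate 1 was -0.02, against -0.0024 for all genes.

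Atp2a2 stood furthest apart, with 667 CPM in replicate 2 and 546 CPM in replicate 1, a log2 ratio of 0.29. Of all genes, 20.8% lay further from 0. Casq2 was also higher in replicate 2, with 23.4 CPM against 20.5 CPM in replicate 1 (log2 ratio 0.19). Casq1 was the lowest relative to replicate 1, with 1579 CPM in replicate 2 and 1785 CPM in replicate 1 (log2 ratio -0.18). Atp2a3 had a log2 ratio of -0.15, with a counting interval from -0.42 to 0.12 that spans 0. The other genes lay within 0.05 of 0: Pln at 0.04, Hrc at 0.01, Srl at -0.02, Atp2a1 at -0.02 and Pvalb at -0.04.

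Slow-fibre markers were higher in the same animal as Atp2a2 and Casq2. All 6 (Myh7, Tnnt1, Tnni1, Tnnc1, Myl2 and Myl3) were higher in replicate 2, with log2 ratios from 0.17 to 0.33 and a median of 0.25, and their summed level was 1705 TPM in replicate 2 and 1631 TPM in replicate 1. Of the 6 fast-fibre markers 3 were higher in replicate 2, with log2 ratios from -0.10 to 0.24 and a median of 0.02. The highest of them, Myh1 (0.24), lay within the range of the slow-fibre markers. The part of fibre makeup in the ratios of Atp2a2 and Casq2 was not tested. With scaling to the spike-ins, which moved the median of all genes to -0.12, Atp2a2 (0.17), Casq2 (0.06) and the 6 slow-fibre markers remained higher in replicate 2, while Pln (-0.08) and Hrc (-0.11) changed sign with this shift.

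**Figure D4:**
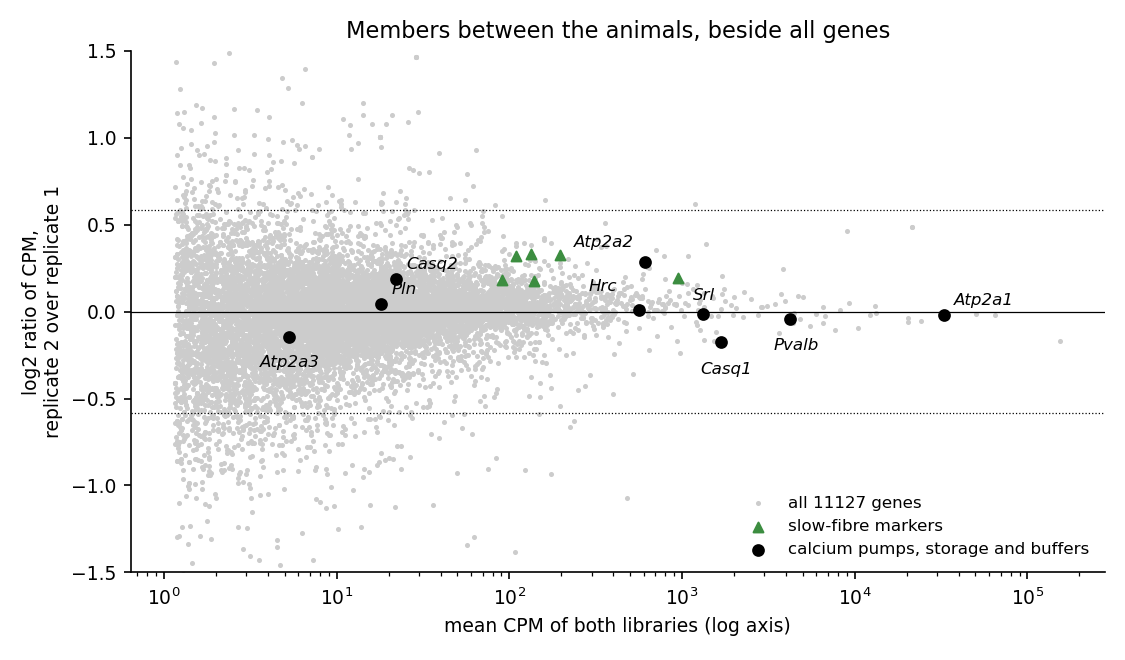
Log2 ratio of CPM, replicate 2 over replicate 1, against mean CPM on a log axis for 11127 genes (grey), the 6 slow-fibre markers (triangles) and 9 of the calcium genes (black); dotted lines mark 1.5-fold, and 61 genes lie outside the plotted range. Atp2a2 (0.29) and Casq2 (0.19) sit among the slow-fibre markers, and the other 7 black points lie between -0.18 and 0.04.

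Markers of other cells that express these genes lay below the fibre markers, but not all lay below Pln, Casq2 and Atp2a3. Cardiomyocyte markers, of a tissue rich in Atp2a2, Pln and Casq2, summed to 6.63 TPM in replicate 2 and 6.47 TPM in replicate 1 over 6 genes, with 2 detected. The atrial light chain Myl4 made up most of it, with 3.48 TPM in replicate 2 and 3.64 TPM in replicate 1, and Tnnt2 was the other gene detected. Myl7 was at 0 TPM in replicate 2 and at 0.07 TPM, from 1 count, in replicate 1. Nppb was at 0.05 TPM, from 1 count, in replicate 2 and at 0 TPM in replicate 1. Smooth-muscle markers (4 of 5 detected) summed to 60.9 TPM in replicate 2 and 67.8 TPM in replicate 1, and endothelial markers (5 of 5) to 44.0 and 53.5 TPM. Smtn had 28.6 ± 1.52 TPM, above Pln, while the other smooth-muscle markers were below Pln by the first quantification. By the second, Acta2 was above Pln in replicate 1 (20.5 against 18.0 TPM) and below it in replicate 2 (16.2 against 19.0 TPM). Each endothelial marker was above Atp2a3. Platelet markers, of cells that carry Atp2a3, summed to 1.11 TPM in replicate 2 and 2.27 TPM in replicate 1, with 0 of 4 detected. Lymphocyte and neuron markers summed to under 1 TPM each in both, with 0 of 4 detected in each list. The part of these cells in the low Pln, Casq2 and Atp2a3 levels was not tested.

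Which transcript of a gene was counted depended on the method for some genes. The 10 genes have 38 annotated transcripts, and for 7 of the 10 one transcript led in each animal by each quantification (Atp2a1, Atp2a2, Sln, Casq1, Casq2, Hrc and Pvalb). Sln has only 1 annotated transcript, so its lead and its share of 100% were fixed by the annotation. The share of the leading transcript had a median over the 10 genes of 90.3%, and of 77.8% for the same transcripts by the second quantification. For Casq1, the coding transcript Casq1-201 held 84.1% in replicate 2 and 83.3% in replicate 1, and Casq1-202, a retained-intron transcript with no coding sequence, the rest. The second quantification gave that retained intron 23.4 ± 0.236%.

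Srl had a different leading transcript by each quantification. Srl-202 (472 codons) held 51.0% in replicate 2 and 53.6% in replicate 1, and Srl-201, the long form of 910 codons, held 34.9% and 33.9%. By the second quantification the short noncoding Srl-204 (366 bases) led with 37.3% in replicate 2 and 35.8% in replicate 1; the even shorter Srl-203 held 10.9% and 9.59% by the first quantification and 0.114% and 0.0874% by the second. Effective lengths were 100 bases below the annotated length in the first quantification and 248 bases below in replicate 2 and 246 bases below in replicate 1 (medians) in the second, and the part of this in the Srl values was not tested. Casq2-201 held 98.5% in replicate 2 and 100% in replicate 1, but 77.7% and 85.8% by the second quantification. The transcripts of Pln differ outside the coding sequence alone, since all 6 have 159 coding bases. Pln-201 held 36.5% in replicate 2 and 40.4% in replicate 1, Pln-204 29.5% and 41.0%, and Pln-205 27.1% and 10.3%. The second quantification gave Pln-204 the lead with 41.4% in replicate 2 and 58.9% in replicate 1, and Pln-205 25.6% and 0%. For Atp2a3 the animals differed, with Atp2a3-207 at 0% in replicate 2 and 50.4% in replicate 1, on the 217 and 237 counts of the whole gene.

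**Figure D5:**
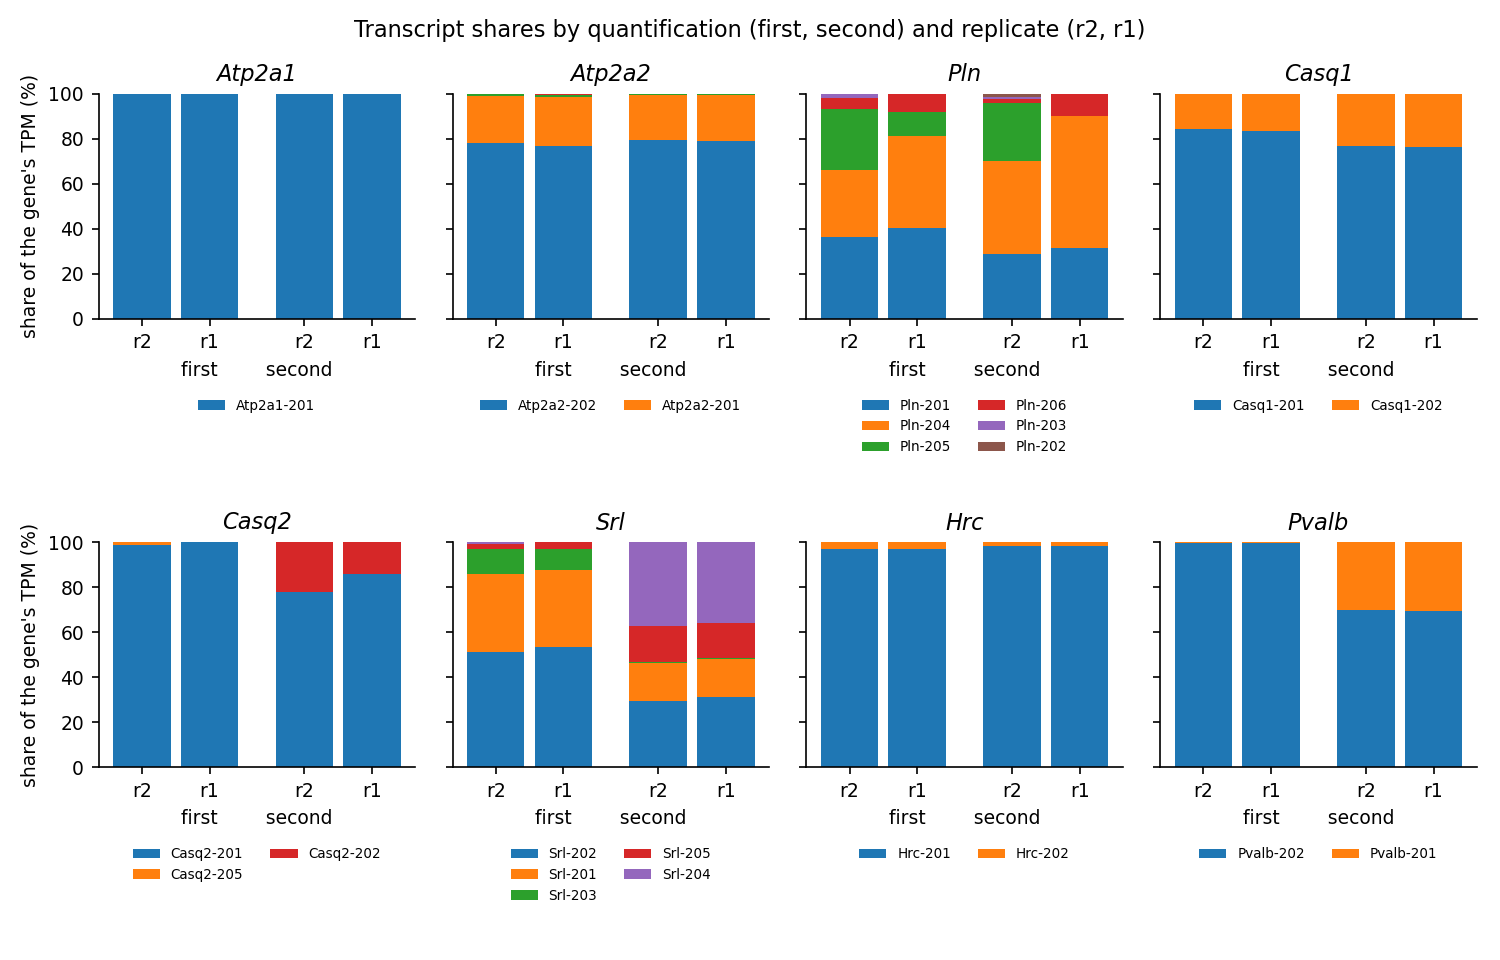
Share of each gene's TPM in each transcript (%), stacked, for 8 of the 10 genes; in each panel the left bars are the first quantification and the right bars the second, replicate 2 (r2) left of replicate 1 (r1). Atp2a2 and Hrc look alike by both, while Srl, Casq2 and Pvalb differ between quantifications.

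Pvalb has 2 annotated transcripts with the same 333 coding bases and starts 2163 bases apart. Pvalb-202, from the upstream start, held 99.5% in replicate 2 and 99.4% in replicate 1, but 69.7% and 69.4% by the second quantification, and Pvalb-201 the rest. The spread over animals was under 1 percentage point by either, far below the gap between the methods. The 250 bases before each start are shown because the choice of start is what the methods disagree on (RefSeq, GRCm38.p6, minus strand, 5′ to 3′). Capitals mark matches, on either strand, to the E-box CANNTG or to the binding motif of MEF2, and no match overlaps another.
Pvalb-202, chr15:78206401-78206650: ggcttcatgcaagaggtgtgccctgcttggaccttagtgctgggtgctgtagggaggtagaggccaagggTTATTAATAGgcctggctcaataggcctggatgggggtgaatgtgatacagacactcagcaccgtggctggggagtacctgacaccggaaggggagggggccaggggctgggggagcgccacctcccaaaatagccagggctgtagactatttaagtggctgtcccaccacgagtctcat
Pvalb-201, chr15:78204238-78204487: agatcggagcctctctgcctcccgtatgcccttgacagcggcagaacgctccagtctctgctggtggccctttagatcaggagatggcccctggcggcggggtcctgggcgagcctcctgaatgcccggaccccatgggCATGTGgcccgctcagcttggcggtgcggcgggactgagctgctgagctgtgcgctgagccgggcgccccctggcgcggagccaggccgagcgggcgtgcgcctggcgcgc

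The window before Pvalb-202 holds 1 MEF2 match and 0 E-boxes, and that before Pvalb-201 holds 0 MEF2 matches and 1 E-box. Of 32851 promoter windows of this length in the table, 2.92% hold a MEF2 match and 66.2% an E-box. Neither window holds the exact letters TATAAA, which 12.4% of windows do, or CCAAT, which 33.8% do. Variants of these strings were not searched. The window of Pvalb-202 has 58.4% G and C, that of Pvalb-201 71.6%. A match describes letters and does not show binding.

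Other genes that move or bind calcium give a scale for these levels. Of 10 other pumps and exchangers 7 were detected, with a summed level of 81.6 TPM in replicate 2 and 93.3 TPM in replicate 1, below Atp2a2 alone. The plasma membrane pump Atp2b1 had 28.2 ± 3.75 TPM, the sodium-calcium exchangers Slc8a3 and Slc8a1 23.2 ± 3.07 and 9.29 ± 0.127 TPM, and the Golgi pump Atp2c1 15.0 ± 0.382 TPM. All 12 other luminal calcium-binding genes were detected and summed to 291 TPM in replicate 2 and 329 TPM in replicate 1, led by the chaperones Hspa5 (67.8 ± 8.88 TPM), Calr (67.6 ± 4.55 TPM), Hsp90b1 (44.4 ± 6.09 TPM) and Canx (44.3 ± 2.09 TPM). Their sum was below Srl alone.

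Of 12 other cytosolic calcium-binding genes 8 were detected. The troponins Tnnc2 (4725 ± 447 TPM) and Tnnc1 (249 ± 17.7 TPM) and the calmodulin gene Calm3 (188 ± 18.7 TPM) were among the highest. All were below Pvalb by the first quantification. By the second, Tnnc2 had 5874 TPM in replicate 2 and 6896 TPM in replicate 1, above Pvalb at 5017 and 5964 TPM. Of 17 release and store-entry genes 14 were detected. The highest were the release channel Ryr1 (1003 ± 131 TPM), the potassium channel Tmem38a (569 ± 42.4 TPM), triadin, which anchors calsequestrin (Trdn, 510 ± 21.9 TPM), and the voltage sensor Cacna1s (503 ± 68.1 TPM). Atp2a1 stood at 13.9 ± 0.478 times Ryr1.

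Between the animals each of these lists held genes higher in either one. Higher in replicate 2 were 2 of 3 tested micropeptides, 4 of 7 other pumps and exchangers, 6 of 12 luminal, 2 of 8 cytosolic and 9 of 16 release genes, with list medians from -0.02 to 0.07. Of all genes, 49.4% were higher in replicate 2. Past 1.5-fold was 1 gene of these 46, against 5.56% of all genes. It was sorcin (Sri, log2 ratio of CPM -0.77), named after its value was seen, with 155 expected counts in replicate 2 and 261 in replicate 1. Its TPM, a measure scaled otherwise than this ratio, was 3.29 in replicate 2 and 8.08 in replicate 1.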

How the data were processed

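The authors deposited expected counts, read numbers estimated per feature without normalization, and the deposited TPM are those counts per effective length, scaled to a fixed total per library, per the file headers. A deposited percent column holds the part of its gene's TPM that a transcript takes. The tables are laid out as RSEM writes them, with a second transcript quantification laid out as kallisto writes it. Genome mm10 and annotation GENCODE M21 come from the deposited descriptions, and which programs ran is not given in the sources read. Libraries were made from 300 ng of RNA with ERCC spike-ins and a directional kit that reduces ribosomal RNA, per the labels. The labels give both libraries the same donor identifier but separate animals, so errors rest on the labels' count of 2 animals.

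All 55536 gene identifiers were found in GENCODE M21. Expected counts were rounded for edgeR 4.0.16 in R 4.3.3, scaled by TMM, and log2 ratios of CPM used a prior count of 2 and a mean count of at least 50. The computation of ratios was tested on simulated counts. Counts of the libraries differed beyond counting noise, with a chi-square of 29.2 per degree of freedom. DESeq2 1.42.0 size factors, spike-in scaling, total counts, other count minimums, a prior count of 0.5, posterior mean TPM, the second quantification and leaving out each animal were alternatives. Python 3.11.15 with SciPy 1.17.1, NumPy 2.4.6 and pandas 2.3.3 was used for tables.

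The 10 genes and all lists were chosen with earlier results of these data known. Named are all 10, all micropeptides, all fast and slow pairs and the 4 highest by mean TPM of each list of calcium genes. Of these, 1 gene is not reported here. No gene is named for a similar pattern, since 2 libraries of 1 group give no pattern over conditions. Of the 10 genes 7 have a promoter entry in the RefSeq table. Origin of reads from the B6 or CAST allele was not analysed here.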

Additional observations from a re-analysis of the deposited data

How the results depend on the processing

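No paired analysis was possible because both libraries belong to 1 group. The second quantification moved the Atp2a1 to Atp2a2 ratio to 52.1, the Atp2a1 share of pump TPM to 98.1%, the pump to inhibitor ratio to 589, the summed TPM of the 10 genes to 18875 and the median share of the leading transcripts to 77.8%. Rescaling over nuclear protein-coding genes moved the summed TPM to 51664. Spike-in scaling lowered the number of the genes higher in replicate 2 to 2, with Pln at -0.077 and Hrc at -0.11 reversed. That scaling shifts every gene by about the same amount, and 4 of the 9 stayed above the median of all genes. Dropping the count filter added Sln, so that 1 gene was at least 1.5-fold apart. Without the filter the comparison by construction takes in a gene with 14 and 5 counts, and for the second quantification the cause was not tested. Leaving out either animal gave 57.8 to 71.5 for Atp2a1 over Atp2a2, 103 to 133 for Casq1 over Casq2, 98.3 to 98.6% for the Atp2a1 share and 99.0 to 99.3% for the Casq1 share. It gave 644 to 757 for pumps over inhibitors, 0.497 to 0.505 for Pvalb over pumps, 21961 to 25370 for summed TPM and 90.1 to 94.3% for the median leading share. With both animals kept, 23 of the values that answer a comparison stayed within 1 SD, or 1.5 times for counts, and 8 did not. With 2 animals, leaving out either moves a mean by less than 1 SD by construction, so those ranges do not show stability. The median leading share is not such a mean. Without replicate 1 it moved by more than 1 SD, from 90.3% to 94.3%. Ratios between the animals cannot be computed without either one. Depth limits Sln and the transcripts of Atp2a3.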
